A study of Rattus norvegicus with 12 samples.

Results

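Hypothermic preservation was examined as 1 condition: 9 livers that had been kept cold after warm ischemia were compared with 3 livers that had not. All 9 of the cold-preserved livers among the 12 livers sequenced were taken, with no selection on expression. They were 3 livers after static cold storage for 4 h (SCS 4 h), 3 after cold storage for 3 h followed by hypothermic machine perfusion without added oxygen for 1 h (HMP 1 h), and 3 after the same storage followed by hypothermic oxygenated perfusion for 1 h (HOPE 1 h). The 3 reference livers had warm ischemia for 30 min and no other intervention (WI 30 min), and the cold-preserved livers had gone through the same warm ischemia first. All donors were male Sprague-Dawley rats with no genetic change given, 6 to 8 weeks old per the study's methods, given heparin and killed by cardiac arrest, as a model of donation after circulatory death, and RNA came from whole liver tissue. The solution used for storage was HTK, a low-sodium preservation fluid rich in histidine. The contrast gave each cold group the same weight, as the mean of the 3 cold group means minus the WI 30 min mean, and the genes described are first of all those with the same sign in all 3 cold groups. Time after cardiac arrest, cold, the preservation fluid and, in 6 livers, perfusion all differed between cold-preserved and WI 30 min livers and cannot be told apart.

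A liver donated after circulatory death loses its blood supply at body temperature before it can be cooled, and cooling slows its metabolism without stopping it. Transcripts measured after preservation reflect those present at cooling, those made or degraded in the cold, and the cells that remain in the tissue after blood is flushed out. Interferon-stimulated genes are a group switched on through interferon receptors and the transcription factors they activate, and in the liver they are active in hepatocytes, endothelium and Kupffer cells, the resident macrophages. Heat shock chaperones refold damaged proteins and are under the control of heat shock factors, and globin transcripts come from young circulating red blood cells.

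The libraries held 15592012 to 18343167 counted reads in the cold-preserved livers and 15262961 to 17083357 in the WI 30 min livers, and 13687 genes were tested. Hepatocyte markers were abundant in all livers, with a summed level of 133700 to 209100 CPM, the read count scaled to a common library size in cold-preserved livers and 167500 to 178600 CPM in WI 30 min livers, as the tissue label implies. Replicate 1 of HMP 1 h and replicate 3 of HOPE 1 h stood apart by high markers of Kupffer, endothelial, stellate and bile duct cells. Their mean score over these markers was 1.05 and 0.771 log2 units above the average liver, against -0.426 to 0.0445 in the other 10 livers. Mitochondrial transcripts took 18.67% of reads in replicate 1 of HMP 1 h and 4.792% to 10.19% in the other livers.

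Over the whole transcriptome, only 1 gene of 13687 passed an adjusted p of 0.05 in the edgeR quasi-likelihood test of cold-preserved against WI 30 min livers, which is 0.00731% of the genes tested. That gene was Gtse1 (ENSRNOG00000016148, Rnor_6.0 chr7:126736732-126753220, plus strand), which encodes a microtubule-associated protein of the G2 and S phases of the cell cycle that also restrains p53. Gtse1 had 0.617, 0.783 and 0.654 CPM after SCS 4 h, 0.800, 0.625 and 0.329 CPM after HMP 1 h and 1.37, 1.19 and 1.15 CPM after HOPE 1 h, against 6.99, 2.25 and 6.10 CPM in WI 30 min livers. All 9 cold-preserved livers were thus below all 3 WI 30 min livers. Gtse1 fell by 2.68 on the log2 scale (SE 0.31, edgeR adjusted p = 0.0290), with log2 fold changes of -2.89, -3.10 and -2.04 in SCS (4 h), HMP and HOPE (1 h each) over the same WI 30 min livers. The call did not hold without every library: adjusted p in edgeR was 0.44 without replicate 1 and 0.0926 without replicate 3 of WI 30 min, where the log2 fold changes were -2.39 and -2.54, and it was between 0.0509 and 0.127 without any 1 of the 3 SCS 4 h livers, the 3 HOPE 1 h livers or replicate 2 of HMP 1 h. It held without replicate 2 of WI 30 min (adjusted p = 0.0029 in edgeR), and without replicate 1 or replicate 3 of HMP 1 h.

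Below that threshold the contrast was broader. At an unadjusted p under 0.05, 1090 genes differed (7.96% of those tested), 555 with a positive and 535 with a negative log2 fold change. DESeq2, run on the same counts, called 76 genes (0.555%), 51 higher and 25 lower in cold-preserved livers, 73 of which had the same sign in all 3 cold groups. A total of 6471 genes (47.3% of those tested) had the same sign in all 3 cold groups, 3701 positive (27%) and 2770 negative (20.2%), and since the 3 comparisons share the same WI 30 min livers these counts carry no test. In 205 genes (1.5%) the 9 cold-preserved and the 3 WI 30 min livers did not overlap, with the cold-preserved livers above in 128 (0.935%) and below in 77 (0.563%). Without replicate 3 of WI 30 min 426 genes were above and 294 below, but non-overlap is easier to reach with fewer reference livers. The count was not taken without either of the other WI 30 min livers, so a part of that replicate in it was not tested. Taken singly, SCS (4 h), HMP and HOPE (1 h each) each gave 0 edgeR calls against WI 30 min, with 653 (4.77%), 1894 (13.8%) and 1173 (8.57%) genes at an unadjusted p under 0.05, and DESeq2 called 15, 390 and 97.

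**Figure D1:**
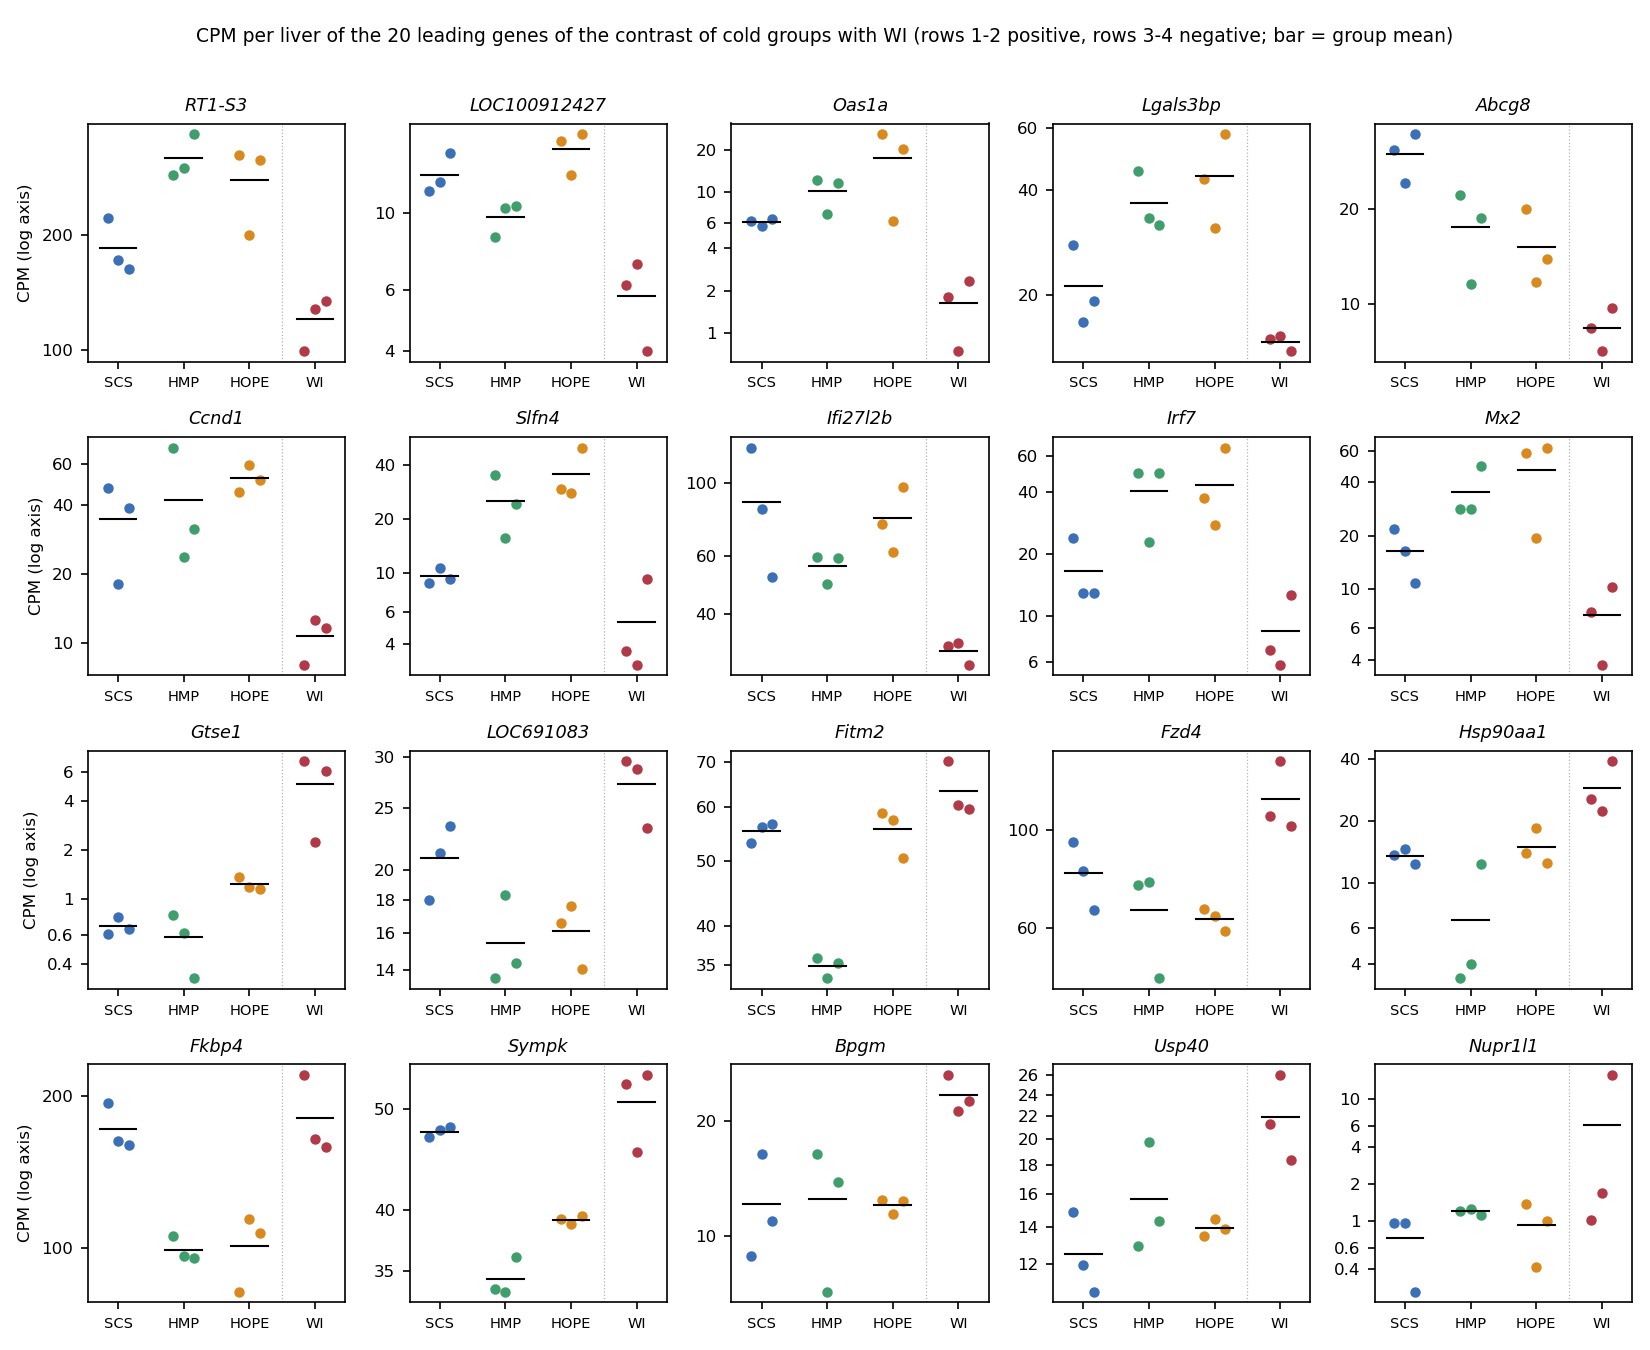
CPM of each liver on log axes for the 20 leading genes of the contrast, 10 with a positive log2 fold change in the upper rows and 10 with a negative one in the lower rows. Points are single livers, bars are group means, and the dotted line separates the SCS (4 h), HMP and HOPE (1 h each) livers from the WI 30 min livers, and Oas1a lies at 5.78 CPM or above in every cold-preserved liver and at 2.36 CPM or below in every WI 30 min liver.

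Interferon-stimulated genes made up the largest block among the leading positive genes. Of 43 tested genes of an interferon-stimulated list, 27 had a positive log2 fold change at an unadjusted p under 0.05 (62.8%, against 4.05% of all genes) and 0 a negative one, although none passed adjustment in edgeR. In 34 of the 43 the sign was positive in all 3 cold groups (79.1%, beside 27% of all genes). In 10 the cold-preserved livers lay wholly above the WI 30 min livers (23.3%, beside 0.935% of all genes). The median log2 fold change of the list was 0.79, beside 0.01 over all tested genes, and DESeq2 called 15 of its genes. Without replicate 1 of HMP 1 h and replicate 3 of HOPE 1 h the figures were 25 genes at an unadjusted p under 0.05, 33 with a positive sign throughout, 10 without overlap and a median of 0.71. Of all genes in that setting 4.11% were positive at that level, 21.4% were positive throughout and 1.24% lay wholly above. Without replicate 3 of WI 30 min 16 genes of the list lay wholly above (37.2%), in place of 10. The share of all genes that did so also rose, to 3.03%. Kupffer and endothelial marker levels, also higher on average in cold-preserved livers, are given further on. Their part in the interferon list was not tested beyond leaving out replicate 1 of HMP 1 h and replicate 3 of HOPE 1 h.

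Oas1a (ENSRNOG00000001369, Rnor_6.0 chr12:41200718-41211909), an oligoadenylate synthetase that senses double-stranded RNA, showed the largest difference among the leading positive genes. Its level was 6.22, 5.78 and 6.48 CPM after SCS 4 h, 12.2, 6.996 and 11.5 CPM after HMP 1 h and 25.6, 6.28 and 20.1 CPM after HOPE 1 h, against 1.805, 0.750 and 2.36 CPM in WI 30 min livers. The groups did not overlap, and the log2 fold change was 2.64 (SE 0.45, edgeR adjusted p = 0.225, DESeq2 adjusted p = 5.41e-07). Oas1g, a close paralog of low level singled out after its values were seen, had 0.482 to 5.47 CPM in cold-preserved livers against 0 to 0.302 CPM in WI 30 min livers. The rat Oas1 genes are near-identical copies between which reads can be split, so neither value is certain for 1 gene alone.

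Irf7 (Rnor_6.0 chr1:214248837-214252456), the transcription factor that amplifies the type I interferon response, had 23.8, 12.9 and 12.9 CPM after SCS 4 h, 49.1, 22.9 and 49.3 CPM after HMP 1 h and 37.1, 27.6 and 65.4 CPM after HOPE 1 h. The WI 30 min livers had 6.83, 5.81 and 12.7 CPM. The groups did not overlap, although 2 SCS 4 h livers came close to the highest WI 30 min liver, and the log2 fold change was 1.86 (SE 0.38, edgeR adjusted p = 0.303). Mx2 (Rnor_6.0 chr11:38035450-38059950), a dynamin-like antiviral GTPase, had 10.9 to 62.7 CPM in cold-preserved livers, with a median of 28.2, against 7.39, 3.75 and 10.3 CPM in WI 30 min livers (log2 fold change 2.07, SE 0.42, edgeR adjusted p = 0.303). Its neighbor Mx1 had 3.21 to 22.9 CPM against 1.69 to 4.05 CPM, with 2 SCS 4 h livers inside the WI 30 min range (log2 fold change 1.90, SE 0.42).

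Ifi27l2b, a small interferon-inducible membrane protein gene, did not overlap either, with 49.4 to 128 CPM in cold-preserved livers and 31.9, 32.7 and 28.04 CPM in WI 30 min livers (log2 fold change 1.23, SE 0.23). Its highest value was in an SCS 4 h liver. Its relative Ifi27 had 300 to 503 CPM in cold-preserved livers and 225 to 288 CPM in WI 30 min livers (log2 fold change 0.63, SE 0.14). Lgals3bp, a secreted galectin-binding glycoprotein outside the list, had 16.8 to 57.7 CPM in cold-preserved livers against 14.9, 15.3 and 13.8 CPM in WI 30 min livers (log2 fold change 1.15, SE 0.21). Slfn4, a Schlafen gene of myeloid cells, had 8.80, 10.6 and 9.23 CPM after SCS 4 h, 35.2, 15.7 and 24.2 CPM after HMP 1 h and 29.3, 27.9 and 49.8 CPM after HOPE 1 h. WI 30 min livers had 3.67, 3.06 and 9.25 CPM of Slfn4, so that the SCS 4 h and WI 30 min livers overlapped (log2 fold change 1.94, SE 0.37).

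The signaling components were divided. Irf9, the DNA-binding subunit of the transcription factor complex that type I interferon activates, had 16.5 to 37.8 CPM in cold-preserved livers and 12 to 15.8 CPM in WI 30 min livers (log2 fold change 0.76, SE 0.18). Stat2, another subunit of that complex, had a log2 fold change of 0.23 (SE 0.19) and did not reach an unadjusted p under 0.05. Among the effectors, Ifit3, which binds foreign RNA together with its relatives, had 3.40 to 24.0 CPM in cold-preserved livers and 1.5 to 3.78 CPM in WI 30 min livers (log2 fold change 1.58, SE 0.40). Isg15, a ubiquitin-like modifier, had a log2 fold change of 1.13 (SE 0.43). The list also held genes without a positive estimate, such as Rsad2, the antiviral enzyme viperin, at -0.28 (SE 0.33), and Helz2, a helicase-like coactivator, at -0.29 (SE 0.17).

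Among the genes with small p were also class I histocompatibility genes, for which no list was tested. RT1-S3 (Rnor_6.0 chr20:3176107-3179818), a nonclassical class I histocompatibility gene, had 221, 172 and 163 CPM after SCS 4 h, 288, 299.5 and 367 CPM after HMP 1 h and 324, 199.5 and 314 CPM after HOPE 1 h, against 99.2, 128 and 134 CPM in WI 30 min livers. Every cold-preserved liver exceeded every WI 30 min liver (log2 fold change 1.08, SE 0.18, edgeR adjusted p = 0.211). RT1-CE10, a further class I gene named after its values were seen, was tight within both groups at 2.62 to 3.73 CPM against 0.812 to 1.24 CPM (log2 fold change 1.61, SE 0.23, edgeR adjusted p = 0.0979). Class I genes of the rat are a family of near-identical copies, and reads could be assigned to the wrong member. Psmb8, the immunoproteasome subunit that shapes peptides for class I molecules and a member of the interferon list, had 12.3 to 25.0 CPM in cold-preserved livers and 8.06 to 11.6 CPM in WI 30 min livers (log2 fold change 0.91, SE 0.21), and none of these 3 genes passed adjustment in edgeR.

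Promoter sequence is shown for 4 of these genes because they share a short motif that interferon response factors are known to bind. RefSeq promoters (build GRCr8, 250 bases before to 50 after the gene start) were at hand for 30 of the 43 list genes, and the core GAAANNGAA, searched on both strands and chosen after the gene values were known, was in 20 of the 30 (66.7%) and in 9.71% of all 33469 promoters. Among the 10 leading positive genes, 6 had a promoter sequence and 4 of these held the core. The 4 genes shown were picked from those holding it. Of other genes described above, Mx1, Slfn4 and Irf9 had 0 matches, and RT1-S3 and Psmb8 had 1 each. The runs below read 5′ to 3′ in the direction of the gene with the core or its reverse complement in capitals, in Oas1a as 2 overlapping matches starting 41 and 35 bases before the gene start, and in Ifit3 as 2 matches at 43 and 24 bases before it. In Irf7 (chr1:205799974-205800273, minus strand) the match starts 68 bases before the gene start and in Lgals3bp (chr10:104127799-104128098, minus strand) 50 bases before it, while Oas1a lies at chr12:41330216-41330515 and Ifit3 at chr1:241527076-241527375, both on the plus strand. A match is a description of letters and not evidence of binding in these livers.
Irf7: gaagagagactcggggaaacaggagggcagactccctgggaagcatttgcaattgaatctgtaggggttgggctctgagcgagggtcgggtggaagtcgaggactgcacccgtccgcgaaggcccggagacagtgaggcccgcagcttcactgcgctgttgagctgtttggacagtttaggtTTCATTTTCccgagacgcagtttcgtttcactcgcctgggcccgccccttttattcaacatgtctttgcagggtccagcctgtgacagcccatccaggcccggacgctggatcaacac
Oas1a: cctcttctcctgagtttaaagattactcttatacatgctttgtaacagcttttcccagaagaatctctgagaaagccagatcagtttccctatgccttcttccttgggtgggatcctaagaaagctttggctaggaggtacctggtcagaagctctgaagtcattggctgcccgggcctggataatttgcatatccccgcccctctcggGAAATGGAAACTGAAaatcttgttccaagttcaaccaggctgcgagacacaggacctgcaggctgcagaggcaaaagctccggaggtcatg
Lgals3bp: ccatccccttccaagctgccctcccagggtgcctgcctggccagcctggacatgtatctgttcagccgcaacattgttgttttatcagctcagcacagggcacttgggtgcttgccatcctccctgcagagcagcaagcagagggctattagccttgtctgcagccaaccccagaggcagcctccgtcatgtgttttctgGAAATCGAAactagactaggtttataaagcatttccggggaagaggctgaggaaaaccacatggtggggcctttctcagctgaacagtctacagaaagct
Ifit3: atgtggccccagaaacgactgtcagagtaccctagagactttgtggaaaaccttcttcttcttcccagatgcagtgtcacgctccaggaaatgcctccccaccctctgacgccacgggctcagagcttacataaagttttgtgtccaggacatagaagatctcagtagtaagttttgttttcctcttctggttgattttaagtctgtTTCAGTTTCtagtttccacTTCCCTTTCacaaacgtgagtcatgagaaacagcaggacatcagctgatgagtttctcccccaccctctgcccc

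The list median over WI 30 min was 0.38 after SCS 4 h, 1.18 after HMP 1 h and 0.92 after HOPE 1 h, and 0.37, 1.11 and 0.69 without replicate 1 of HMP 1 h and replicate 3 of HOPE 1 h. Whether the list as a whole differed among the cold groups was not tested. A test of any difference among the 3 cold groups gave an unadjusted p under 0.05 for 14 of the 43 genes (32.6%), beside 12.9% of all genes, and 0 genes of the whole table passed adjustment in edgeR, where 1760 genes had an unadjusted p under 0.05 and DESeq2 called 439. Slfn4 and Lgals3bp had the smallest p of this test among the 10 leading positive genes, and both were lowest after SCS 4 h, though neither passed adjustment.

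**Figure D2:**
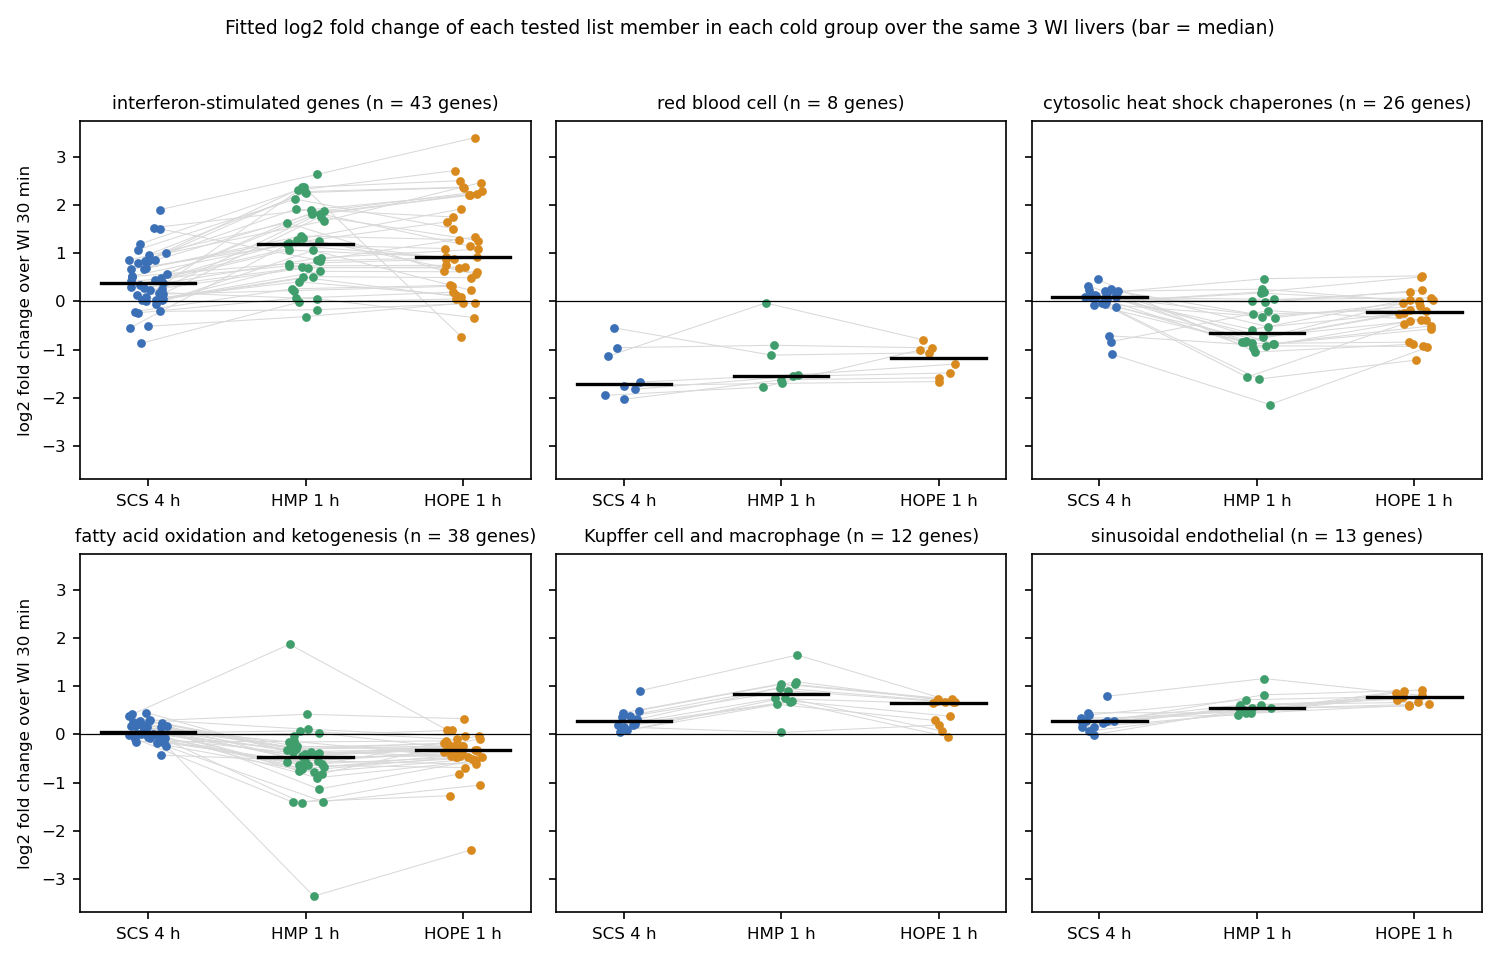
Fitted log2 fold change over WI 30 min of every tested gene of 6 lists, shown for SCS (4 h), HMP and HOPE (1 h each), with grey lines joining a gene and black bars at the median of the list. All 8 red blood cell genes lie below 0 in every cold group, the interferon-stimulated medians are 0.38, 1.18 and 0.92, and the chaperone and fatty acid oxidation medians lie near 0 after SCS 4 h and below 0 after HMP 1 h and HOPE 1 h.

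Red blood cell transcripts had lower levels in cold-preserved livers of every group. The study's methods describe an aortic flush at procurement but do not state when WI 30 min livers were sampled relative to it, so that flushing and preservation cannot be told apart for these transcripts. Of the 8 tested red cell markers, all 8 had a negative sign in all 3 cold groups (20.2% of all genes did), and 7 lay wholly below the WI 30 min livers (0.563% of all genes). Of the 8 markers, 7 were negative at an unadjusted p under 0.05 (3.91% of all genes), with 0 passing adjustment in edgeR. Their summed level was 583, 1818 and 1437 CPM after SCS 4 h, 2595, 274 and 1336 CPM after HMP 1 h and 1548, 1231 and 1872 CPM after HOPE 1 h, against 4681, 4446 and 3460 CPM in WI 30 min livers. The cold-preserved livers spread widely, but the highest of them was still below the lowest WI 30 min liver, and the list median was -1.54, or -1.84 without replicate 1 of HMP 1 h and replicate 3 of HOPE 1 h. In bulk tissue fewer cells of a type and less RNA per cell cannot be told apart, here and in every list below.

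Hbb, the beta chain of hemoglobin, had 75.0 to 762 CPM in cold-preserved livers, with a median of 467, against 1639, 1396 and 1198 CPM in WI 30 min livers (log2 fold change -1.70, SE 0.48, edgeR adjusted p = 0.447). Hba-a1, an alpha chain gene with near-identical copies, had 138 to 1319 CPM against 1625 to 2173 CPM (log2 fold change -1.50, SE 0.45). Alas2, the red cell form of the first enzyme of heme synthesis, had 1.12 to 19.5 CPM against 24.5 to 39.1 CPM (log2 fold change -1.75, SE 0.50). Bpgm, which makes the bisphosphoglycerate that tunes hemoglobin, was the red cell gene with the smallest p, at 7.12 to 16.4 CPM in cold-preserved livers and 26.5, 21.2 and 22.7 CPM in WI 30 min livers (log2 fold change -0.94, SE 0.22, edgeR adjusted p = 0.368). Slc4a1, the red cell anion exchanger, had a log2 fold change of -0.91 (SE 0.26), and Epb42, its membrane partner, overlapped between groups at -0.65 (SE 0.52).

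Further genes outside the red cell list also lay below in every cold-preserved liver. Ahsp, which stabilizes free alpha globin, had 0.561 to 1.51 CPM in cold-preserved livers against 1.81 to 3.38 CPM in WI 30 min livers, and Alox15, a lipoxygenase that clears organelles from maturing red cells, had 1.69 to 28.9 CPM against 36.1 to 57.9 CPM. Cdc25b, a mitotic phosphatase, also lay wholly below, at 1.44 to 8.51 CPM against 11.1 to 15.9 CPM. These 3 genes were picked from the 205 without overlap after their values were seen. For all 3, as for Hbb, the lowest values were those of replicate 1 of SCS 4 h and replicate 2 of HMP 1 h. Gtse1 was lowest in replicate 3 of HMP 1 h, and the part of blood content in its difference was not tested.

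**Figure D3:**
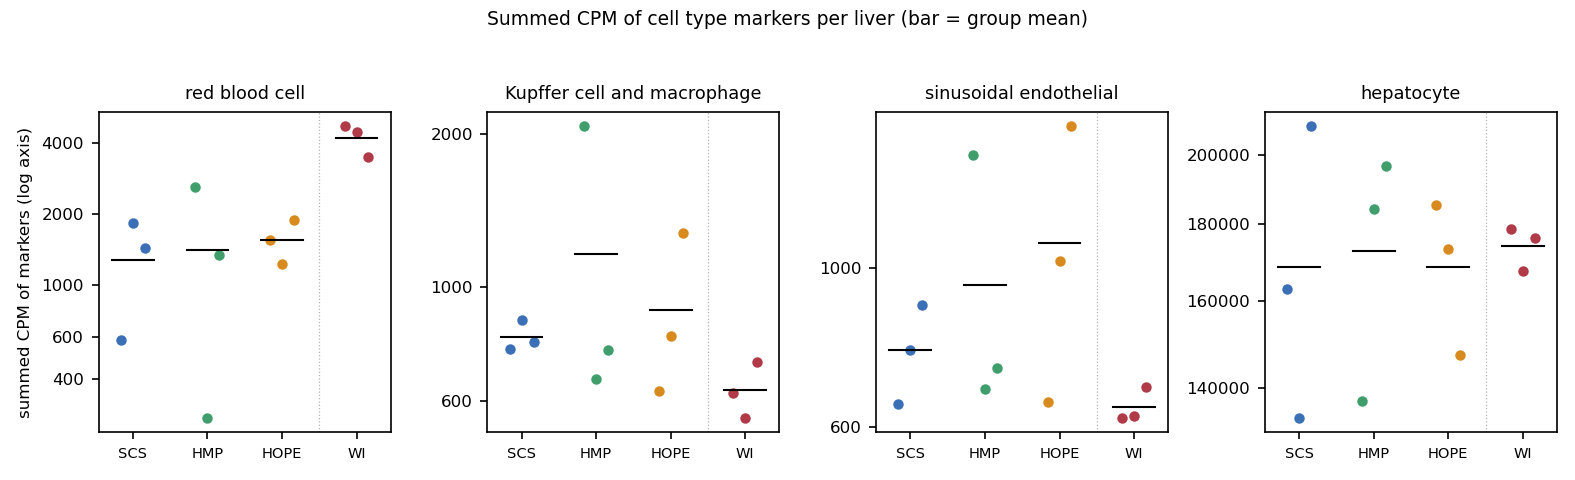
Summed CPM per liver on log axes of the markers of red blood cells, Kupffer cells and macrophages, sinusoidal endothelium and hepatocytes, with bars at the group means and the dotted line separating cold-preserved from WI 30 min livers. Red blood cell markers do not exceed 2595 CPM in cold-preserved livers and reach 3460 CPM or more in WI 30 min livers, while the macrophage and endothelial panels are led by replicate 1 of HMP 1 h and replicate 3 of HOPE 1 h.

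Markers of the resident nonparenchymal cells leaned the other way. All 12 tested Kupffer cell and macrophage markers had a positive log2 fold change, 11 of them in all 3 cold groups (27% of all genes were so), with a median of 0.59. At an unadjusted p under 0.05 were 4 of the 12 (33.3%, beside 4.05% of all genes). C1qa, a chain of the first complement component made by macrophages, had 72.5 to 250.2 CPM in cold-preserved livers and 62.8 to 71.5 CPM in WI 30 min livers (log2 fold change 0.76, SE 0.32), and Clec4f, a lectin of rodent Kupffer cells, had 156 to 459 CPM against 120.2 to 166 CPM. The high values were those of replicate 1 of HMP 1 h and replicate 3 of HOPE 1 h, without which the median was 0.26. In that setting 7 of the 12 were positive in all 3 cold groups (58.3%, beside 21.4% of all genes). At an unadjusted p under 0.05 were then 5 of the 12 (41.7%, beside 4.11% of all genes). Without replicate 1 of HMP 1 h alone 7 were also positive in all 3 cold groups, beside 22.4% of all genes. Without replicate 3 of WI 30 min 0 of the 12 had an unadjusted p under 0.05, where 3.61% of all genes were positive at that level. Sinusoidal endothelial markers also leaned higher, with 12 of 13 positive in all 3 cold groups and a median of 0.52. At an unadjusted p under 0.05 were 2 of the 13 (15.4%, beside 4.05% of all genes). Without the same 2 cold-preserved livers the median was 0.27 and 1 gene had an unadjusted p under 0.05 (7.69%, beside 4.11% of all genes). In that setting 10 of the 13 were positive in all 3 cold groups (76.9%, beside 21.4% of all genes). Without replicate 3 of WI 30 min 0 of the 13 had an unadjusted p under 0.05, beside the same 3.61% of all genes. Neutrophil markers were near the limit of detection, with 1 of 11 tested and summed levels of 1.65 to 4.91 CPM against 0.9997 to 2.599 CPM.

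Apart from interferon genes, several named genes were higher in all 9 cold-preserved livers. Ccnd1 (Rnor_6.0 chr1:218090750-218100325), which encodes the G1 cyclin D1, had 47.0, 18.0 and 38.7 CPM after SCS 4 h, 70.5, 23.7 and 31.4 CPM after HMP 1 h and 45.5, 59.5 and 51.0 CPM after HOPE 1 h, against 8.06, 12.6 and 11.6 CPM in WI 30 min livers. The WI 30 min range ended well below the lowest cold-preserved liver (log2 fold change 1.98, SE 0.37, edgeR adjusted p = 0.234, DESeq2 adjusted p = 1.11e-05). Abcg8 (Rnor_6.0 chr6:7961413-7980708), one of the pair of proteins in the transporter that exports sterols into bile, had 30.8, 24.1 and 34.5 CPM after SCS 4 h, 22.2, 11.6 and 18.8 CPM after HMP 1 h and 20, 11.8 and 13.9 CPM after HOPE 1 h, against 8.404, 7.12 and 9.73 CPM in WI 30 min livers. Here SCS 4 h was the highest group (log2 fold change 1.25, SE 0.23, edgeR adjusted p = 0.234), and its partner Abcg5 had a log2 fold change of 0.76 (SE 0.20) with overlapping values. LOC100912427, annotated as a processed pseudogene so that its reads may come from a parent gene, had 8.51 to 16.9 CPM in cold-preserved livers and 3.99 to 7.12 CPM in WI 30 min livers.

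Sgk1, a kinase induced by glucocorticoids and by cell volume change, had 19.4 to 53.5 CPM in cold-preserved livers and 14.7 to 18.0 CPM in WI 30 min livers (log2 fold change 1.26, SE 0.28, edgeR adjusted p = 0.333), with the log2 fold changes of the 3 cold groups at 1.17, 1.32 and 1.29. Rbm3, an RNA-binding protein induced by mild cooling, had 13.3 to 33.5 CPM against 9.98 to 13.5 CPM (log2 fold change 1.01, SE 0.23, edgeR adjusted p = 0.348), and 1 SCS 4 h liver lay inside the WI 30 min range. Of the 9 tested genes of the cold-inducible list Rbm3 was the only one at an unadjusted p under 0.05, and its relative Cirbp had a log2 fold change of 0.36 (SE 0.24). Hamp, the iron hormone hepcidin made by hepatocytes, had 147.5 to 730.3 CPM in cold-preserved livers and 18.2, 49.2 and 186 CPM in WI 30 min livers (log2 fold change 2.42, SE 0.72, edgeR adjusted p = 0.452). Serpina3c, a serine protease inhibitor, did not overlap, at 4331 to 6564 CPM against 3554 to 4159 CPM (log2 fold change 0.57, SE 0.15).

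Acute-phase and complement genes, products of hepatocytes, were positive in all 3 cold groups in 24 of 35 tested genes, beside 27% of all genes. Of these 35, 7 had an unadjusted p under 0.05, all positive (20%, beside 4.05% of all genes), 0 passed adjustment in edgeR, and the median was 0.29. The 7 depended on single livers: there were 16 without replicate 1 of HMP 1 h, 17 without replicate 3 of HOPE 1 h as well, and 4 without replicate 3 of WI 30 min. In those settings 4.48%, 4.11% and 3.61% of all genes were positive at that level. Fga and Fgb, 2 chains of fibrinogen, had log2 fold changes of 0.50 (SE 0.20) and 0.57 (SE 0.22). In the bile acid list, 5 of 21 genes were positive and 1 negative at an unadjusted p under 0.05, beside 4.05% and 3.91% of all genes. Without replicate 1 of HMP 1 h and replicate 3 of HOPE 1 h 8 were positive, beside 4.11% of all genes. Besides Abcg8 and Abcg5, Cyp7b1, an oxysterol hydroxylase, had 3.29 to 10.97 CPM in cold-preserved livers and 2.59 to 3.08 CPM in WI 30 min livers, and Slco1a4, an organic anion uptake carrier, had a log2 fold change of 1.23 (SE 0.31). The negative gene was Cyp8b1, the sterol hydroxylase of cholic acid synthesis, at -0.89 (SE 0.26), where replicate 3 of WI 30 min (954 CPM) lay among the cold-preserved livers and the other 2 WI 30 min livers had 2343 and 2432 CPM.

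Heat shock chaperones had their lowest estimates after perfusion. Of 26 tested genes, 9 had a negative log2 fold change at an unadjusted p under 0.05 and 0 a positive one (3.91% of all genes were negative). Only 7 were negative in all 3 cold groups (26.9%, near the 20.2% of all genes), and the sign was mixed in 16. The list median was 0.09 after SCS 4 h, -0.66 after HMP 1 h and -0.22 after HOPE 1 h. For a difference among the cold groups 16 of the 26 genes (61.5%, beside 12.9% of all genes) had an unadjusted p under 0.05. Without replicate 3 of WI 30 min the 3 medians were 0.09, -0.56 and -0.07. In that setting 7 genes were positive and 7 negative in all 3 cold groups (beside 31.5% and 21.3% of all genes). At an unadjusted p under 0.05, 9 were then negative and 1 positive (beside 4.03% and 3.61% of all genes). Hsp90aa1 (Rnor_6.0 chr6:135107271-135112775), the inducible cytosolic Hsp90, was the one chaperone below WI 30 min in all 9 livers, with 13.6, 14.6 and 12.3 CPM after SCS 4 h, 3.43, 4.00 and 12.4 CPM after HMP 1 h and 14.0, 18.5 and 12.4 CPM after HOPE 1 h, against 25.6, 22.2 and 39.0 CPM in WI 30 min livers. The log2 fold change was -1.40 (SE 0.30, edgeR adjusted p = 0.333, DESeq2 adjusted p = 0.00899). Fkbp4, an Hsp90 cochaperone of steroid receptors, had 194, 163 and 160.1 CPM after SCS 4 h, 106, 96.2 and 95.5 CPM after HMP 1 h and 81.9, 114 and 107 CPM after HOPE 1 h, against 221, 165 and 159 CPM in WI 30 min livers. Its SCS 4 h and WI 30 min livers overlapped fully and only the 6 perfused livers were lower (log2 fold change -0.60, SE 0.13).

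The promoter of Fkbp4 (RefSeq, GRCr8 chr4:163397869-163398168, minus strand) is shown with its 1 match to the heat shock element core in capitals, which starts 137 bases before the gene start. The core was searched as GAANNTTC or TTCNNGAA on both strands, and it was in 15 of the 20 chaperone genes with a promoter sequence (75%) and in 15.9% of all promoters, with no inference on factor binding.
Fkbp4: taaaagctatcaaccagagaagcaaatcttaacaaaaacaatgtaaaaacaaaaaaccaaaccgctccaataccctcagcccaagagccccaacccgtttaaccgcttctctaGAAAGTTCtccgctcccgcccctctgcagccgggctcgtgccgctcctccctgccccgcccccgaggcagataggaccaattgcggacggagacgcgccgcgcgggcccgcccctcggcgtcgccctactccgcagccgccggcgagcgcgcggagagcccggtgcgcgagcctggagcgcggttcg

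Other leading negative genes belonged to no single group. Fzd4, a Wnt and Norrin receptor of vascular cells, had 46.3 to 93.8 CPM in cold-preserved livers and 108, 143 and 102 CPM in WI 30 min livers (log2 fold change -0.76, SE 0.16, edgeR adjusted p = 0.333). Fitm2, an endoplasmic reticulum protein of lipid droplet formation, did not overlap either, but most of its difference came from HMP 1 h, with 35.8, 33.5 and 35.3 CPM there, 50.5 to 58.9 CPM in the other cold-preserved livers and 59.7 to 70.2 CPM in WI 30 min livers (log2 fold changes -0.20, -0.86 and -0.19 for SCS (4 h), HMP and HOPE (1 h each)). Sympk, a scaffold of messenger RNA 3′ end formation, had a log2 fold change of -0.34 (SE 0.08), Usp40, a deubiquitinating enzyme, of -0.65 (SE 0.15), and the locus LOC691083 of -0.65 (SE 0.13). All 3 overlapped between groups by at least 1 liver. Nupr1l1, a paralog of the stress protein Nupr1, met the naming rule through replicate 3 of WI 30 min alone, which had 15.7 CPM where the other 2 had 1.01 and 1.69 CPM and cold-preserved livers 0.262 to 1.37 CPM, and its log2 fold change of -2.71 became -0.53 without that liver.

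Fatty acid oxidation genes repeated the chaperone pattern. Of 38 tested genes, 17 had a negative log2 fold change at an unadjusted p under 0.05 (beside 3.91% of all genes) and 0 a positive one. In all 3 cold groups 12 were negative (31.6%, beside 20.2% of all genes), and 0 lay wholly below the WI 30 min livers. The list median was 0.06 after SCS 4 h, -0.46 after HMP 1 h and -0.32 after HOPE 1 h, and 28 of the 38 genes (73.7%, beside 12.9% of all genes) had an unadjusted p under 0.05 for a difference among the cold groups. Ehhadh, a bifunctional enzyme of peroxisomal oxidation, had 1368, 1013 and 883 CPM after SCS 4 h, 572, 425 and 315 CPM after HMP 1 h and 491, 408 and 537 CPM after HOPE 1 h, against 1589, 1360 and 515.5 CPM in WI 30 min livers. Replicate 3 of WI 30 min thus lay within the cold-preserved range (log2 fold change -0.92, SE 0.27, edgeR adjusted p = 0.452). Without that WI 30 min liver 21 of the 38 genes were negative in all 3 cold groups (55.3%, beside 21.3% of all genes). In that setting 5 lay wholly below (13.2%, beside 2.09% of all genes), and the SCS 4 h median was -0.06.

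Proteasome subunits had opposite signs within the cold-preserved livers. In all 31 tested subunits the sign was mixed, with a median of 0.18 after SCS 4 h, -0.38 after HMP 1 h and -0.23 after HOPE 1 h, and 28 of 31 (90.3%, beside 12.9% of all genes) had an unadjusted p under 0.05 for a difference among the cold groups. Without replicate 1 of HMP 1 h and replicate 3 of HOPE 1 h the sign was mixed in all but 1 subunit. In that setting 22 of the 31 differed at that level (71%, beside 13.3% of all genes). Nuclear-encoded respiratory chain subunits were alike in form, with medians of 0.28, -0.09 and -0.15, mixed signs in 72 of 77 and a pooled median of 0.01. Cytosolic ribosomal protein genes were positive in 64 of 71, 29 of them in all 3 cold groups (40.8%, beside 27% of all genes). Their median was 0.11, and 2 were positive at an unadjusted p under 0.05 (2.82%, beside 4.05% of all genes). The 29 became 17 of 72, with 4 negative, without replicate 3 of WI 30 min (23.6%, beside 31.5% of all genes). Without replicate 1 of HMP 1 h and replicate 3 of HOPE 1 h they became 15 of 72 (20.8%, beside 21.4% of all genes). The 29 genes of endoplasmic reticulum folding and the 46 of autophagy and mitophagy had 0 genes at an unadjusted p under 0.05 in the pooled edgeR contrast, beside 7.96% of all genes, and 0 adjusted calls. Of the endoplasmic reticulum genes 13 (44.8%, beside 12.9% of all genes) had an unadjusted p under 0.05 for a difference among the cold groups. Their list medians were 0.18, -0.24 and -0.10 for SCS (4 h), HMP and HOPE (1 h each). For the autophagy genes the count was 6 (13%), near the 12.9% of all genes. Without replicate 3 of WI 30 min the endoplasmic reticulum and autophagy lists each had 1 gene positive at an unadjusted p under 0.05 in the pooled contrast (3.45% and 2.17%, beside 3.61% of all genes).

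**Figure D4:**
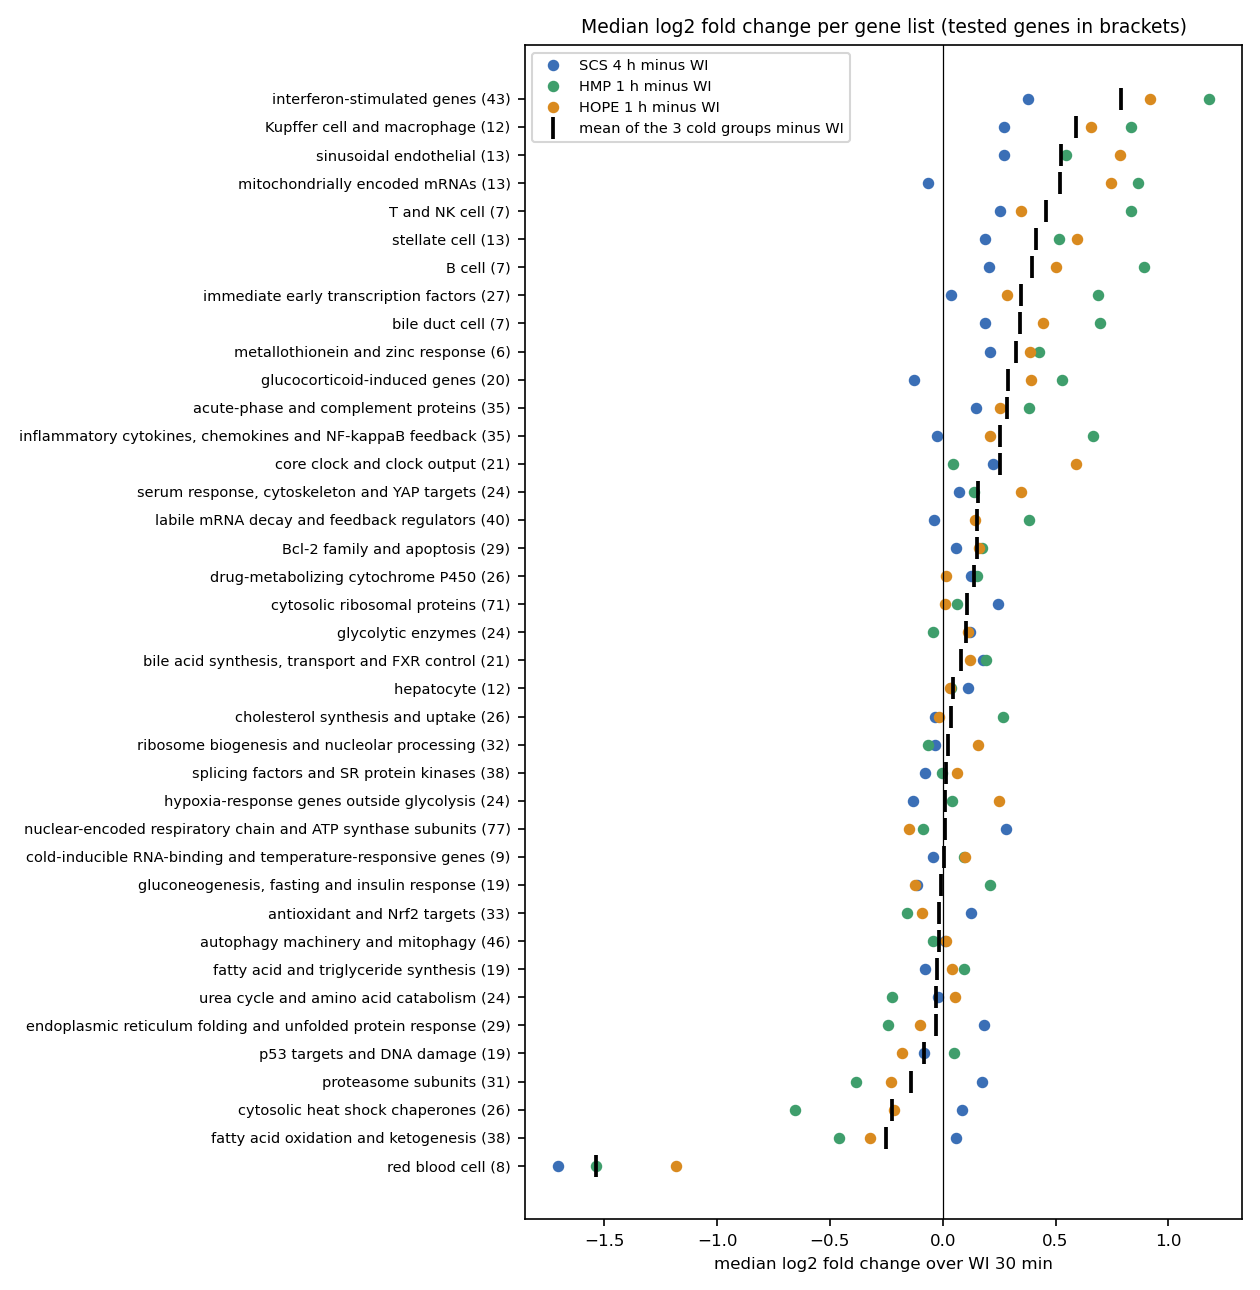
Median log2 fold change over WI 30 min of each gene list with at least 5 tested genes, as colored points for SCS (4 h), HMP and HOPE (1 h each) and a black tick for the mean of the 3 cold groups, with the number of tested genes in brackets. Interferon-stimulated genes are at the top with a pooled median of 0.79 and red blood cell genes at the bottom with -1.54, and proteasome subunits have points on both sides of 0.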

How the data were processed

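RNA-seq libraries (SMARTER mRNA-Seq kit, total RNA) of 12 rat livers, 1 per liver, were analysed. The authors aligned reads with Hisat2 to Rnor_6.0 and used StringTie, and for the counting tool and the strand setting the sources used here gave no information. The authors deposited raw read counts per gene and FPKM values in 1 table of 33744 genes. FPKM values deposited by the authors were not tested. The columns with the authors' own group means, fold changes and p-values for pairs of groups were not used, and 0 per-liver columns were unmapped.

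Groups came from the sample labels. Nothing beyond the numbering says how the livers were batched, so p-values measure the spread between these livers. Counts were filtered for low values (filterByExpr), TMM-normalized and fitted in 1 model of 4 group means with edgeR 4.0.16 in R 4.3.3 (quasi-likelihood test, 8 residual degrees of freedom, Benjamini-Hochberg adjustment over 13687 genes). The contrast was the mean of SCS (4 h), HMP and HOPE (1 h each) minus WI 30 min. Single groups and the difference among cold groups came from the same fit. limma 3.58.1 and DESeq2 1.42.0 were alternatives, with other normalization, no filter, a replicate block, and libraries or groups left out. CPM are counts scaled to a common normalized library size.

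The named genes were those called with a symbol that is no clone-based name, the same sign in all 3 cold groups and 5 CPM or more on average in cold-preserved or in WI 30 min livers, filled up to 10 per direction with the genes of smallest unadjusted p that met the other criteria, plus for each gene list the 2 genes of smallest unadjusted p. Other genes named were chosen after their values were seen. The gene lists and the contrast were chosen with earlier results of these data known. In simulated counts of 13687 genes for this contrast, edgeR recovered 16.4%, 86.6% and 100% of genes changed 1.5, 2 and 4-fold with 5 false calls, and DESeq2 37.3%, 92.5% and 100% with 20 false calls. The changed genes were over 5 CPM on average and changed equally in all 3 cold groups, with no liver made to stand apart. Recovery in the real livers was not measured, and edgeR did not call Oas1a there at a log2 fold change of 2.64. Within the groups, no pair of libraries agreed within sampling noise, and pairs across groups were not checked.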

Additional observations from a re-analysis of the deposited data

Results flagged for a closer look

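Within the 9 cold-preserved livers, 5 of 33 sets of values tested had 1 liver far from the rest by Dixon's criterion, which chance gives in about 1 in 20. Of these, 4 concerned replicate 1 of HMP 1 h. Mitochondrially encoded transcripts took 18.67% of its counts, and the next liver had 10.19%. The share averaged 7.886% ± 4.473 in cold-preserved livers and 5.432% ± 0.3479 in WI 30 min livers (SD, n = 9 and 3, two-sided exact permutation p = 0.4273). Kupffer cell and macrophage markers summed to 2066 CPM in that liver, and the next had 1278 CPM. T and NK cell markers summed to 92.32 CPM, and the next liver had 59.38 CPM. B cell markers summed to 47.53 CPM, and the next liver had 21.61 CPM. The fifth was Usp40, with 19.8 CPM in replicate 2 of HMP 1 h and 14.86 CPM in the next liver.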

How the results depend on the processing

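Gene calls depended on the setting. The pooled contrast gave 1 edgeR call, against 76 in DESeq2, 0 in limma-trend, 2 with 1 mean for the 9 cold-preserved livers, 0 without the SCS 4 h group and 0 without the HMP 1 h group. Calls for SCS 4 h, HMP 1 h, HOPE 1 h and the difference among cold groups, all 0 in the reported fit, were 15, 390, 97 and 439 in DESeq2, and HMP 1 h had 1 in limma-trend. With no filter on low counts SCS 4 h had 1, HMP 1 h 19 and HOPE 1 h 8. Without replicate 1 of HMP 1 h and replicate 3 of HOPE 1 h together the pooled contrast had 3, HMP 1 h 46, HOPE 1 h 1 and the difference 5. Leaving out 1 liver at a time gave 0 to 3 pooled calls, 0 to 1 for SCS 4 h, 0 to 29 for HMP 1 h, 0 to 4 for HOPE 1 h and 0 to 11 for the difference, and HMP 1 h had 29 without its replicate 1 and 27 without replicate 3 of WI 30 min. Genes with 1 sign in all 3 cold groups numbered 6471, and 5948 to 7423 with 1 liver left out. Msln, at -0.47, had log2 fold changes of -0.87 to 0.66 with 1 liver left out, positive without replicate 2 of WI 30 min, and 0.18 without the SCS 4 h group. The cause of these differences was not tested.

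Replicate numbers showed no clear pairing of the livers, a question that 3 livers per group could not settle. Correlations of same-numbered livers ran over 18 pairs from -0.189 to 0.143, with 1 over 0.1, and 5 of 12 livers correlated best with their own number. The fit with the replicate block gave 0 pooled calls, 1 for SCS 4 h, 1 for HOPE 1 h, 0 for HMP 1 h and 0 for the difference. With 3 livers per group, recovery of 1.5-fold changes in simulated data was low.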
